A study of Mus musculus with 2 samples.

Results

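The let-7 family was measured here through 10 miRNA genes, Mirlet7a-1, Mirlet7a-2, Mirlet7b, Mirlet7c-1, Mirlet7c-2, Mirlet7d, Mirlet7f-2, Mirlet7g, Mirlet7i and Mir98, among 1973 miRNA genes in the count tables. They were taken by gene identity, through their Ensembl identifiers, and not by a cut on their values, though earlier results of these data were known. The samples were neural tubes, the embryonic source of brain and spinal cord, of B6NCrl mouse embryos at 14.5 days, with no treatment or altered allele stated. Replicate 1 was pup 1 of dam 1 and replicate 2 was pup 1 of dam 2. The labels speak of a single neural tube per sample and also of pooled males and females, and which holds is not settled here. Total RNA was sequenced as small RNA, and the tables held 5941830 reads for replicate 1 and 7074029 for replicate 2, of which 3172235 and 3671915 were counted on the sense strand of a miRNA gene. Levels are sense counts scaled to a library total of 1000000 (CPM). The limit set by a count of 0, that of 3 counts, was 0.946 CPM for replicate 1 and 0.817 CPM for replicate 2. This limit and all intervals below are for counting error only and do not cover variation between embryos or preparations. No molecular identifiers are stated, so reads and not molecules are counted.

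let-7 was found in the worm Caenorhabditis elegans as a regulator of developmental timing. A miRNA guides the silencing complex to messenger RNAs mainly through its seed, bases 2 to 8, and well known let-7 targets in mammals include Lin28a, Lin28b, Hmga2 and Trim71. LIN28 in turn binds the loop of let-7 precursors and blocks their maturation. In the developing nervous system let-7 is known for rising as progenitors leave the cell cycle and differentiate.

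The mature 5p sequences, the arm that forms most functional let-7, show why the members had to be read in separate classes. The 10 genes make 8 different 5p sequences, printed 5′ to 3′ from RefSeq (GRCm38.p6) with the seed in capitals.
let-7a-5p: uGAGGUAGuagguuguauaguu
let-7b-5p: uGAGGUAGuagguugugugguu
let-7c-5p: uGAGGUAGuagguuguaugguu
let-7d-5p: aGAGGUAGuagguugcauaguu
let-7f-5p: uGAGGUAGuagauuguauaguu
let-7g-5p: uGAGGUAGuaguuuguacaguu
let-7i-5p: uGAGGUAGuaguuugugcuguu
miR-98-5p: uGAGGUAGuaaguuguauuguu

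All 10 genes carry the same seed, GAGGUAG, and the differences lie outside it. With let-7a-5p as the reference and positions counted from its 5′ end, let-7c-5p differs by A19G, let-7f-5p by G12A, let-7b-5p by A17G and A19G, and miR-98-5p by G11A and A19U. let-7d-5p differs by U1A and U16C, let-7g-5p by G12U and U18C. let-7i-5p is the most distant of the 8, with G12U, A17G, U18C and A19U, or 81.8% identity over 22 bases.

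Mirlet7a-1 and Mirlet7a-2 make the same 5p sequence, as do Mirlet7c-1 and Mirlet7c-2, while Mirlet7f-2 shares its own with Mirlet7f-1, which was not analysed here as a gene of its own. These 5 genes are called copies below. Mirlet7b, Mirlet7d, Mirlet7g, Mirlet7i and Mir98 are single-copy, in that each is the sole annotated gene of its 5p sequence. The 3p arms, normally the less abundant strand, separate most copies, and these are shown for the copies because they decide which reads can be placed.
let-7a-1-3p: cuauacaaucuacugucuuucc
let-7c-2-3p: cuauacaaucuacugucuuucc
let-7a-2-3p: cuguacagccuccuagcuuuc
let-7c-1-3p: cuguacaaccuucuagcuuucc
let-7f-2-3p: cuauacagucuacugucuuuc

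The 3p arm of Mirlet7a-1 is identical to that of Mirlet7c-2, so these 2 members share both arms with another hairpin. Among the 1005 annotated mouse hairpins in the sequence table, a run from the start of the 5p arm became particular to Mirlet7g, Mirlet7i or Mirlet7b at 17 bases, to Mir98 at 11 and to Mirlet7d at the shortest length searched, 10. The copies needed 24 bases, 2 past the mature end, except Mirlet7f-2, which needed 23. For the 3p arm the same search ended at 10 bases in 8 members and at 24 in Mirlet7a-1 and Mirlet7c-2. Matches elsewhere in the genome and matches with mismatches were not analysed here. Reads that fitted several positions were counted for no gene, and they made up 32.4% of the reads in replicate 1 and 33.3% in replicate 2. How many of them were let-7 reads was not analysed here.

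**Figure D1:**
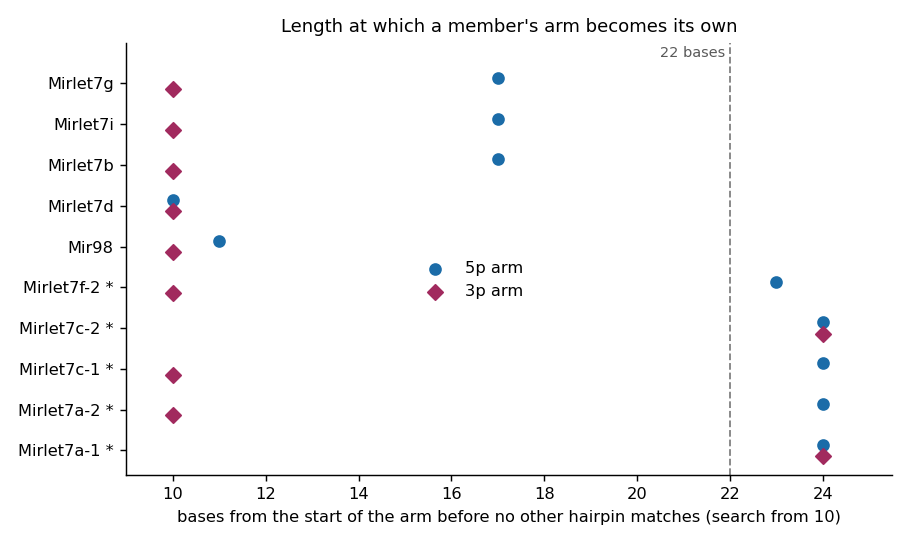
Number of bases, counted from the start of each arm, at which no other annotated hairpin holds the same run, for the 5p arm (circles) and the 3p arm (diamonds) of each member, with the search starting at 10 bases; stars mark copies. The 5p arms of single-copy members lie at 10 to 17 bases and those of copies at 23 or 24, past the usual mature length of 22, and the 3p arms of Mirlet7a-1 and Mirlet7c-2 also need 24.

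As counted at single positions, the family was abundant in the neural tube. It took 6.64% of sense counts in replicate 1 (exact binomial 95% interval 6.61 to 6.66) and 5.34% in replicate 2 (5.31 to 5.36), a mean of 5.99% ± 0.920 (SD, n = 2). All 10 members were read in both libraries, and the lowest member count was 320. Mirlet7g and Mirlet7i together held 78.7% of the family's counts in replicate 1 and 78.8% in replicate 2. Mean CPM spanned 209-fold from the highest member, a single-copy gene, to the lowest, a copy whose counts may be understated. By class it ran from 1684 to 25797 for single-copy members and from 124 to 966 for copies.

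Mirlet7g had rank 5 among all genes in both libraries, with 28302 CPM in replicate 1 and 23292 CPM in replicate 2. It lies in an intron of Wdr82, which encodes a subunit of histone methyltransferase complexes, at chr9:106178840-106178927 on GRCm38, plus strand. Mirlet7i followed at 23958 CPM and 18760 CPM. It lies at chr10:122985640-122985724, minus strand, in an exon of D630033A02Rik, which is annotated as a transcribed pseudogene. Across libraries the ranges of these 2 genes overlapped, but within each library Mirlet7g was higher, 1.18-fold in replicate 1 (exact 95% interval 1.17 to 1.19) and 1.24-fold in replicate 2 (1.23 to 1.25). Next in order of mean CPM above Mirlet7g stood Mir100 (33698 ± 670 CPM), Mir99a (148255 ± 1954 CPM) and Mir10a (163731 ± 2866 CPM), all of the miR-10 and miR-99/100 group. Below Mirlet7i stood Mir335 (20706 ± 1935 CPM), Mir487b (18013 ± 2910 CPM) and Mir99b (17360 ± 386 CPM), and the ranges of Mir335 and Mir487b overlapped that of Mirlet7i. Mirlet7i itself had rank 6 in replicate 1 and rank 7 in replicate 2.

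The other single-copy members were lower. Mirlet7b reached 6219 CPM in replicate 1 and 5792 CPM in replicate 2, with 19727 and 21267 counts. Mirlet7d reached 3519 and 2538 CPM, with 11162 and 9319 counts. Mir98, whose 5p differs from let-7a-5p in 2 bases, reached 1847 and 1521 CPM, with 5858 and 5586 counts. The values of Mirlet7b, Mirlet7d and Mir98 did not overlap one another in either library.

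Every copy stood below every single-copy member. Replicate 1 held 3829 counts of Mirlet7f-2 and replicate 2 held 2661, or 1207 and 725 CPM. Mirlet7c-2 had 1984 and 1035 counts, or 625 and 282 CPM, and Mirlet7c-1 had 1190 and 944 counts, or 375 and 257 CPM. The ranges of the let-7c genes overlapped across libraries.

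The let-7a genes were the lowest members. Mirlet7a-1 had 508 and 320 counts, or 160 and 87.1 CPM. Mirlet7a-2 had 494 and 367 counts, or 156 and 99.9 CPM, so that their order changed between the libraries and the interval of their ratio spanned 1 in each (1.03, 0.907 to 1.17, and 0.872, 0.748 to 1.02). Since a read as long as the mature let-7a, let-7c or let-7f sequence fits more than 1 hairpin, these values may understate each copy by an unknown amount, and the place of copies in the order is uncertain. A read covers a whole mature miRNA, so CPM was not divided by gene length, and CPM per hairpin base (hairpins of 83 to 108 bases) gave the same order of the 10 means.

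**Figure D2:**
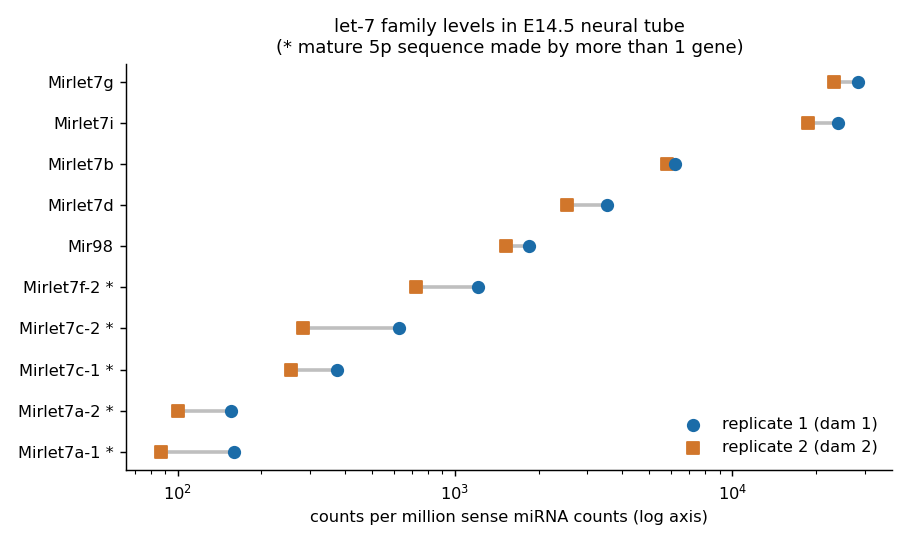
CPM of each member on a log axis in replicate 1 (circles) and replicate 2 (squares), joined by a line, in order of mean CPM; stars mark copies. All 10 members are higher in replicate 1, the 5 single-copy members lie between 1521 and 28302 CPM, and the 5 copies lie between 87.1 and 1207 CPM.

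Single-copy members made up 96.2% of the family's counts in replicate 1 (exact 95% interval 96.1 to 96.3) and 97.3% in replicate 2 (97.2 to 97.4). The copies made up the other 3.80% and 2.72%. Because both shares are taken within a library, no scaling between libraries enters them. The counting rule does enter them, since it left out reads that fitted several positions. These numbered 1922391 in replicate 1 and 2353481 in replicate 2, against 8005 and 5327 counts for the copies. The share of single-copy members may thus be overstated by an unknown amount that the intervals do not cover. It describes reads counted at single positions and cannot show how mature let-7 divides between the classes.

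Most members lie in clusters, and genes of one cluster had unequal counts at single positions. On chromosome 13, Mirlet7d (chr13:48536012-48536114) and Mirlet7a-1 (chr13:48538179-48538272), on the minus strand, lie in exons of the noncoding RNA gene 6720427I07Rik with Mirlet7f-1 between them. Mirlet7d had 22.0 times the counts of Mirlet7a-1 in replicate 1 (exact 95% interval 20.1 to 24.1) and 29.1 times in replicate 2 (26.0 to 32.7). On chromosome 15, plus strand, Mirlet7c-2 (chr15:85706603-85706697) and Mirlet7b (chr15:85707319-85707403) lie in exons of the noncoding RNA gene Lncppara. Their starts are 716 bases apart, and Mirlet7b had 9.94 times the counts of Mirlet7c-2 in replicate 1 (9.49 to 10.4) and 20.5 times in replicate 2 (19.3 to 21.9).

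On chromosome X, plus strand, Mirlet7f-2 (chrX:151912346-151912428) and Mir98 (chrX:151913214-151913321) lie in introns of Huwe1, a ubiquitin ligase gene. Mir98 had 1.53 times the counts of Mirlet7f-2 in replicate 1 (1.47 to 1.59) and 2.10 times in replicate 2 (2.00 to 2.20). Mirlet7c-1 (chr16:77599657-77599750) is intronic in Mir99ahg, a noncoding RNA gene, and starts 721 bases after Mir99a. Mir99a had 392 times its counts in replicate 1 (370 to 415) and 582 times in replicate 2 (546 to 621).

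Mirlet7a-2 (chr9:41536716-41536811) lies in introns of the noncoding RNA genes 3110039I08Rik and Gm49317, 5291 bases after the start of Mir100. Mir100 had 213 times its counts in replicate 1 (195 to 234) and 342 times in replicate 2 (309 to 380). In all 5 of these pairs the denominator is a copy, and the ratio was lower in replicate 1. Reads that fitted several positions were counted for no gene, so these ratios may overstate the difference within a cluster by an unknown amount. Mirlet7g and Mirlet7i have no other annotated miRNA gene within 10000 bases.

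**Figure D3:**
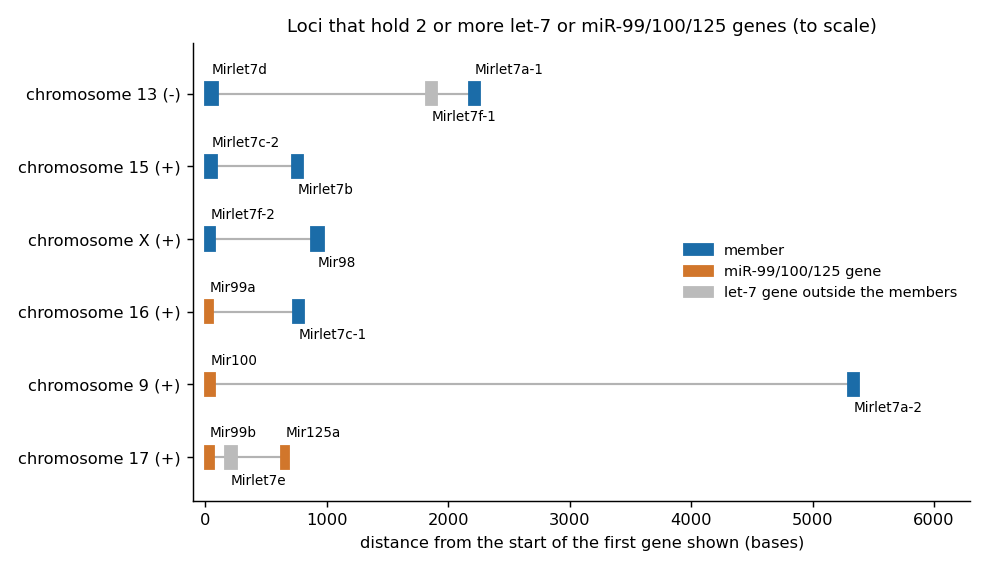
Position of miRNA genes within 6 loci, in bases from the start of the first gene shown in each, drawn to scale, with the strand beside the chromosome. Blue boxes are members, orange boxes genes of the miR-99, miR-100 and miR-125 families and grey boxes Mirlet7e and Mirlet7f-1; Mirlet7c-2 and Mirlet7b start 716 bases apart, and Mir100 and Mirlet7a-2 start 5291 apart.

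Between the libraries, all 10 members were higher in replicate 1, and the copies more so than the single-copy members. The log2 ratio of CPM, replicate 1 over replicate 2, had a median of 0.51 over the members, against -0.23 over all 360 genes with at least 10 counts in 1 library, of which 103 (28.6%) had a ratio above 0. Of the 350 other tested genes, 6.57% had a ratio at or above the members' median. With counts summed over the members the log2 ratio was 0.31 (exact binomial 95% interval 0.31 to 0.32), a 1.24-fold difference. The 10 genes make related sequences and several share transcripts, so they are not independent observations.

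By size, 1 of 10 members was at least 2-fold higher in replicate 1, where 11 of 360 tested genes were (3.06%), and 0 of 10 were at least 2-fold higher in replicate 2, where 42 of 360 were (11.7%). With 1 library per dam no test of litters was possible: the ratios compare these libraries, they have no replicate check, and no p-value is given. Scaling decides part of this, since trimmed mean of M-values (TMM) factors moved every log2 ratio by 0.21. They brought the median of all tested genes to -0.02 and that of the members to 0.72. TMM counted 2 members and 16 genes as at least 2-fold higher in replicate 1 and 28 genes as at least 2-fold higher in replicate 2.

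Mirlet7c-2 was the member past 2-fold, 2.22-fold higher in replicate 1, with a log2 ratio of 1.15 (exact 95% interval 1.04 to 1.26). Mirlet7a-1 had a log2 ratio of 0.88 (0.67 to 1.08), and with TMM scaling 1.09. Mirlet7f-2 stood at 0.74 (0.66 to 0.81), Mirlet7a-2 at 0.64 (0.44 to 0.84) and Mirlet7c-1 at 0.54 (0.42 to 0.67).

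Of the single-copy members, Mirlet7d stood at a log2 ratio of 0.47 (0.43 to 0.51) and Mirlet7i at 0.35 (0.34 to 0.37). Mirlet7g at 0.28 (0.27 to 0.29) and Mir98 at 0.28 (0.23 to 0.33) did not differ beyond counting error. Mirlet7b was the least different, at 0.10 (0.07 to 0.13), and was also the member with fewer raw counts in replicate 1. The ratios of the members thus spread beyond counting error, with the intervals of Mirlet7b and Mirlet7c-2 far apart, while the spread between litters is unknown.

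The 5 copies, at 0.54 to 1.15, all lay above the 5 single-copy members, at 0.10 to 0.47, although the intervals of Mirlet7c-1 and Mirlet7d overlapped. Their summed log2 ratios were 0.80 (0.75 to 0.85) and 0.30 (0.29 to 0.31). The copies were also the 5 members with the fewest counts, so the class and the level cannot be told apart here. Summing the genes of one sequence left no member 2-fold apart.

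**Figure D4:**
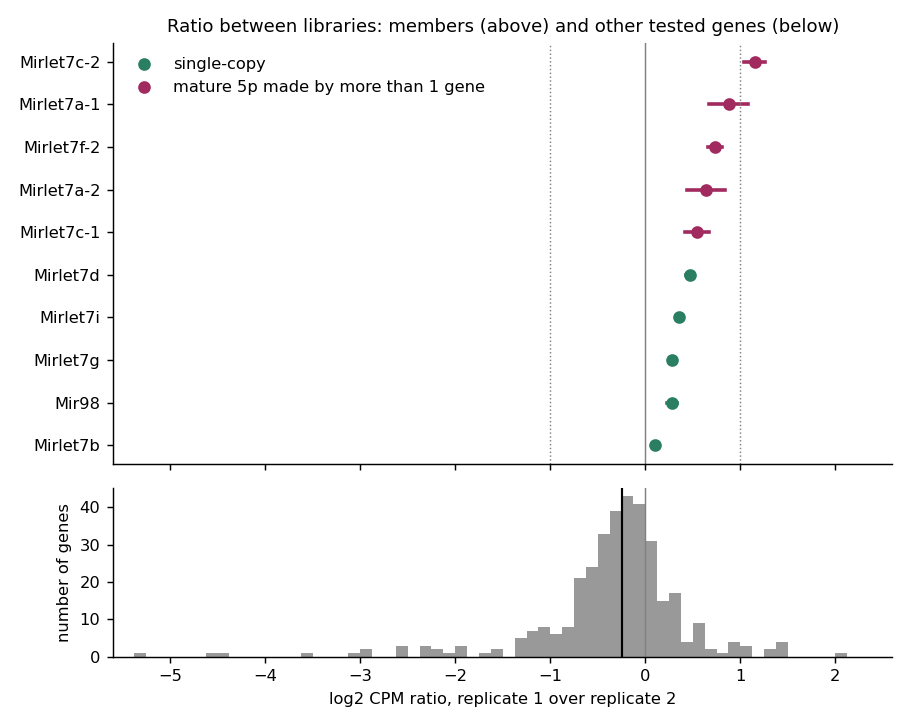
Upper panel, log2 CPM ratio of replicate 1 over replicate 2 for each member with its exact binomial 95% interval (counting error only), green for single-copy members and purple for copies, with dotted lines at 2-fold. Lower panel, number of the 350 other tested genes at each ratio, with their median (-0.25) as a black line; the 10 members lie between 0.10 and 1.15, to the right of that median.

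Within the family, shares moved little for the abundant members. Mirlet7g held 42.6% of the family's counts in replicate 1 and 43.7% in replicate 2, and Mirlet7i 36.1% and 35.2%. Mirlet7b held 9.37% and 10.9%, and Mirlet7d 5.30% and 4.76%. Mirlet7c-2 had the largest relative shift of the 10, from 0.528% of the family in replicate 2 to 0.942% in replicate 1.

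Genes known to act or lie with let-7 were set beside it. Of the list of 6, Mir99a, Mir99b, Mir100, Mir125a, Mir125b-1 and Mir125b-2 (miR-125 is the mammalian relative of worm lin-4, which acts with let-7 in developmental timing), 0 were 2-fold apart, 3 had a log2 ratio above 0, and the median was -0.0043. Of all 360 tested genes, 53 were 2-fold apart and 103 (28.6%) had a ratio above 0. All 6 listed genes lay above the median of all tested genes (-0.23), as the members did. With TMM scaling they ran from 0.04 for Mir125b-2 to 0.60 for Mir125a. The summed CPM of the 6 was 205792 in replicate 1 and 207824 in replicate 2. Mir99a, beside Mirlet7c-1, had a log2 ratio of -0.03 (exact 95% interval -0.03 to -0.02), and Mir100, beside Mirlet7a-2, one of -0.04 (-0.05 to -0.03). Mir125b-1 stood at 1217 and 1202 CPM and Mir125b-2 at 1358 and 1527 CPM. Mir125a, beside Mirlet7e, was the highest of the 6 ratios at 0.39 (0.35 to 0.42), with 5486 and 4201 CPM.

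The genes closest to the summed family ratio among 116 others with at least 1000 counts in each library were Mir342 at 0.32, Mir382 at 0.33, Mir487b at 0.33, Mir149 at 0.34 and Mir10b at 0.28. With 2 libraries this likeness is that of 1 ratio and holds no more than that.

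Sensory, mesenchymal and endothelial markers stood higher in replicate 2, the opposite of let-7, but only 28.6% of all tested genes had a log2 ratio above 0. The sensory genes Mir96, Mir182 and Mir183, all read, had a summed level of 2109 CPM in the first library against 15050 CPM in replicate 2. The 6 mesenchymal genes, Mir143, Mir145a, Mir199a-1, Mir199a-2, Mir199b and Mir214, summed to 1197 and 4894 CPM, with none at 0, and the endothelial gene Mir126a stood at 8443 and 17271 CPM. The 3 erythroid genes summed to 94.3 and 113 CPM, the 3 leukocyte genes to 395 and 852 counts, and the 3 muscle genes with a row to 44.1 and 51.7 CPM, with Mir133a-1 at 0 in both. Of the erythroid genes, 1 had a log2 ratio above 0, Mir486 at 1.48. The neural list of 13, which holds Mir137, Mir9-2, Mir128-1 and the Mir124a copies, was read in full and summed to 22848 and 20564 CPM. Mir9-2 and Mir124a-3 had fewer than 10 counts in each library. Of the other 11, 9 had a log2 ratio above 0, and the ratios ran from -1.37 for Mir124a-2 to 0.97 for Mir128-1. With the sensory and mesenchymal genes left out of the total, the summed let-7 log2 ratio was 0.29. Leaving those genes out changes only the total and moves all members' ratios alike, so it is no test of cell types. The part of these cell types in the let-7 ratios was not tested. In bulk tissue, more cells of a type and more RNA per cell cannot be told apart.

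The hairpin loop, the stretch between the arms that LIN28 binds, divides the members by sequence. The zinc knuckles of LIN28 are known to read GGAG, which is shown in capitals in the 5′ to 3′ loops of a high and a low member that hold it and of the neighbours Mirlet7b and Mirlet7c-2, which do not.
Mirlet7g: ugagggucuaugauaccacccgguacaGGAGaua
Mirlet7a-1: uuagggucacacccaccacugGGAGauaa
Mirlet7b: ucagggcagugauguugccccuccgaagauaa
Mirlet7c-2: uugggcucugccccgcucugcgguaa

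The letters GGAG, searched on the hairpin strand, were in the loop of 7 of 10 members (70.0%) and in that of 46 of 635 other mouse hairpins with both arms in the table (7.24%). Those without it included the members with the lowest log2 ratio between the libraries, Mirlet7b, and the highest, Mirlet7c-2. A match of letters is a description of the sequence and says nothing about binding in this tissue.

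Outside the family, the seed GAGGUAG is carried by 2 further genes with a row in the tables, Mir1961 and Mir7k (let-7k), and each had 0 counts in both libraries. Mir7j (let-7j), named after its values were seen, does not carry that seed and had 399 and 400 counts, or 126 and 109 CPM.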

How the data were processed

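MicroRNA sequencing of 2 libraries of 1 group was used. The authors deposited, for each library, raw counts of reads by miRNA gene in 3 columns (either strand, sense strand, other strand), derived from alignments to mm10 with annotation M4, per the authors' text notes. For the aligner and its settings, the sources used here name none. The sense column was used. The 4 rows that name no gene stayed out of library sizes: reads at several positions (32.4% and 33.3% of reads), unmapped reads (11.5% and 11.8%), reads on no gene's sense strand (2.75% and 3.01%) and ambiguous reads (0). The libraries count as 2 because the labels name 2 dams. Across the 329 genes with at least 10 counts in both, they differed far beyond sampling noise (chi-square 318 per degree of freedom). That difference alone cannot show that they are independent samples.

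CPM, log2 ratios (prior count 0.5) and exact 95% binomial intervals were computed in Python 3.11.15 with scipy 1.17.1, numpy 2.4.6 and pandas 2.3.3, and figures with matplotlib 3.10.9. A gene was tested for a 2-fold difference with at least 10 counts in 1 library. edgeR's quasi-likelihood test could not be run, as 1 library from each dam leaves no residual degrees of freedom. Alternatives used TMM from edgeR 4.0.16 and size factors from DESeq2 1.42.0 under R 4.3.3. Ratios and intervals were checked on simulated counts. Symbols and positions came from GENCODE M21 (GRCm38, the same assembly as mm10): 1894 of 1973 identifiers matched, all 10 members included. Ligation of adapters favours some small RNAs over others in such libraries, so levels of different miRNAs compare reads, not molecules.

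Genes named besides the members were other carriers of the let-7 seed, 6 genes that act or lie with let-7, the 3 nearest in rank above and below the 2 highest members, and the 5 closest to the family's ratio. The members, the lists, the markers and the split into single-copy genes and copies were chosen with earlier results of these data known. Loop sequences are printed for 4 of the 10 members.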

Additional observations from a re-analysis of the deposited data

Results flagged for a closer look

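Reads outside the sense column were found at 2 loci where a let-7 gene lies opposite an annotated gene that the tables list. Gm25927 (chr17:17830343-17830459, minus strand, GRCm38) covers all 93 bases of Mirlet7e, which lies on the plus strand at chr17:17830352-17830444. It had 0 sense counts in either library but 9061 other-strand counts in replicate 1 and 11067 in replicate 2, far above the limit of 3 counts. Scaled as CPM this is 2935 ± 111 (SD, n = 2), close to the 3028 ± 693 CPM of Mirlet7d, and the log2 ratio, taken as replicate 1 over replicate 2, was -0.08 (exact binomial 95% interval -0.12 to -0.04). Gm24111 (chr13:48537825-48537921, plus strand) covers all 89 bases of Mirlet7f-1, on the minus strand. It had 0 sense counts and 140 and 120 other-strand counts, with a log2 ratio of 0.43 (0.07 to 0.80). Mirlet7f-2, which makes the same 5p sequence, had 27.4 and 22.2 times as many sense counts. By position and strand these reads lie on the let-7 genes, but the tables give no read sequences. Added to the family, they bring its share from 5.99% ± 0.920 to 6.26% ± 0.908. The 10 members had 1 other-strand count in each library, both at Mirlet7b.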

How the results depend on the processing

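No paired analysis was possible because the libraries form 1 group. All 10 members kept a log2 ratio above 0 under the 5 alternatives recomputed for each. Each alternative moved all 10 ratios by nearly the same amount, so the kept signs are no check on single members. Mirlet7b ranged lowest, from 0.08 to 0.33, and Mirlet7c-2 highest, from 1.13 to 1.38. Members at least 2-fold apart, 1 as reported, numbered 2 with TMM, with DESeq2 size factors and with the miR-10 family left out of the total, 4 with a 1.5-fold minimum and 0 with copies summed. Of all 360 tested genes, those as far apart and higher in replicate 1 numbered 11 as reported and 16, 17 and 16 under those scalings. They numbered 22 with a 1.5-fold minimum, and 10 of 358 with copies summed. The members' median was 0.72, 0.74 and 0.66 under those 3 scalings and the summed ratio 0.53, 0.54 and 0.46, each by construction of the scaling. The summed ratio was 0.29 without the sensory and mesenchymal genes in the total and 0.30 with the other-strand reads of Gm25927 and Gm24111, both alternatives chosen after the data were seen. The count of all genes 2-fold apart, 53 of 360, was 237 of 678 with no filter on low counts, 24 of 282 with at least 100 counts and 106 of 360 with a 1.5-fold minimum. Without the miR-10 family in the total the family's share was 14.3%. Leaving out either replicate gave a share of 5.34% to 6.64% and a single-copy share of 96.2% to 97.3%. Of the 10 members' log2 ratios, 30 recomputed values moved beyond the counting interval and 20 did not. None changed sign, which follows from the size of those common shifts. With n = 2, a level without either replicate is that of the other library, so it says nothing of stability, and for Mirlet7c-2 it was 282 or 625 CPM against a mean of 454 CPM. Depth leaves intervals of about 0.2 on either side for the let-7a genes, and the part of reads at several positions in the counts of copies was not tested.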

Other observations

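The contrast between copies and single-copy members was set beside that of other genes, a step chosen after the values were seen. Among other genes whose counts in both libraries sum to at least 100, 33 have a mature sequence that also occurs in another annotated hairpin and 200 have none. Their median log2 ratios, replicate 1 over replicate 2, were -0.15 and -0.28. Of the first set 12 of 33 were above 0, 1 was at least 2-fold higher in replicate 1 and 1 in replicate 2. Of the second set 37 of 200 were above 0, 0 were at least 2-fold higher in replicate 1 and 16 in replicate 2. The 5 let-7 copies had a median of 0.74 and the 5 single-copy members one of 0.28. In both cases the set with shared sequences had a higher median than the set with only its own, and neither difference was tested. Among the other genes, the median of the shared set was close to that of the set with no sequence. Members of the miR-196 and miR-128 families, which also have copies, had the highest ratios in the first set, with 1.33 for Mir196a-2, 0.97 for Mir128-1, 0.92 for Mir128-2 and 0.78 for Mir196a-1, while Mir199b had the lowest at -3.57. Mir196b, of the second set, had the highest ratio there at 0.65, below Mir196a-1 and Mir196a-2. These genes were named after their values were seen, and the part of shared sequences in their ratios was not tested.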
